A study of Mus musculus with 13 samples.

Results

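The 3 mouse uncoupling protein genes, Ucp1, Ucp2 and Ucp3, were followed in bulk RNA of hearts from mice that carry 0, 1 or 2 copies of the E3A allele of Cpt1b. They were taken by symbol from count tables that list 24061 gene symbols, and all 3 were found. The hearts came from male C57BL/6N mice aged 13 weeks on chow diet, and their genotype was WT/WT in 4, WT/E3A in 4 and E3A/E3A in 5. E3A is a knock-in allele that lowers the sensitivity of CPT1B, the mitochondrial carnitine palmitoyltransferase of muscle and heart, to its inhibitor malonyl-CoA, and the comparison asks whether transcript levels in the heart differ with it. The labels give the genotype as that of the animal, not of the heart alone. The labels describe 4 hearts as a potential outlier, 1 WT/WT, 1 WT/E3A and 2 E3A/E3A. The main comparisons of the members are given with all 13 hearts and with the 9 others, 3 per genotype. Some other values are given for only 1 of these sets.

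Uncoupling proteins are carriers of the mitochondrial inner membrane, in the same family as the ADP/ATP carriers. UCP1, the founding member, lets protons return to the matrix without ATP synthesis and makes heat in brown fat. UCP3 is found mainly in skeletal muscle, heart and brown fat, its transcript rises when fatty acid supply is high, and it is a known target of the fatty acid receptors of the PPAR family. UCP2 is found in many tissues and in immune cells. What UCP2 and UCP3 carry in the heart is less settled than for UCP1, with roles proposed in limiting reactive oxygen species and in the export of metabolites or fatty acid anions.

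Ucp3 and Ucp2 are neighbours on chromosome 7 and are read in the same direction, while Ucp1 lies alone on chromosome 8. In GRCm38.p6, Ucp3 spans chr7:100472991-100486432 and Ucp2 spans chr7:100493337-100499629, both on the plus strand, with 6.9 kb between the end of Ucp3 and the start of Ucp2. Ucp1 spans chr8:83290348-83298456, also on the plus strand. The windows from 250 bases before to 50 bases after each start site in RefSeq's promoter table of that build are shown because the 3 genes differ so much in level in these hearts. Capitals mark the 4 motifs searched for on both strands. AGGTCA is the hexamer that nuclear receptors such as the PPARs recognise. GGGCGG is the GC box bound by factors of the Sp family, and it reads CCGCCC where it lies on the minus strand. TATATA stands for the core of a TATA box. CAGCTG is an E-box, the kind of site that muscle regulatory factors recognise.
Ucp3, chr7:100472741-100473040, plus strand: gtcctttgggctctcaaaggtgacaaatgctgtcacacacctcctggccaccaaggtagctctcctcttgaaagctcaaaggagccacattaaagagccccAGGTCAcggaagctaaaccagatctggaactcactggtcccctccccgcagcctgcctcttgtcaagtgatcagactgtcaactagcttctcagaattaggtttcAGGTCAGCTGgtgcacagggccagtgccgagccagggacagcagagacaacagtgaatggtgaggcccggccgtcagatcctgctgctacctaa
Ucp2, chr7:100493108-100493407, plus strand: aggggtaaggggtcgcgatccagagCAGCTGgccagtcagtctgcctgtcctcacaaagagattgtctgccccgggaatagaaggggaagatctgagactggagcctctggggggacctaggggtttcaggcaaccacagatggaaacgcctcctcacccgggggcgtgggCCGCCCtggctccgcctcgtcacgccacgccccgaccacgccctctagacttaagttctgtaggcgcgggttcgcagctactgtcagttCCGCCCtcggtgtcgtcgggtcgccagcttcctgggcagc
Ucp1, chr8:83290098-83290397, plus strand: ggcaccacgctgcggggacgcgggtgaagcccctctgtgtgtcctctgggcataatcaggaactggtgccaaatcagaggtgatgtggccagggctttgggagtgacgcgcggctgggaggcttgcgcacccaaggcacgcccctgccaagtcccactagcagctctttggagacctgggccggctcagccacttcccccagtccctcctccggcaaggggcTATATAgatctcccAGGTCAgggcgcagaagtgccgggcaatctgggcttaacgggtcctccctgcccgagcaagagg

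The Ucp3 window holds AGGTCA starting at -149 and at -44, counted from the start site of the promoter table, and a CAGCTG at -40 that shares its first 2 bases with the second AGGTCA. The Ucp2 window holds CAGCTG at -225 and a GC box at -79 and at 10, and the Ucp1 window holds TATATA at -28 and AGGTCA at -14. For Ucp3 and Ucp1 that start site is the gene start given above, and for Ucp2 it is base 100493358, which lies 21 bases inside the gene bounds. Of 32851 promoter windows of the same length, 16.3% hold AGGTCA, 16.3% CAGCTG, 35.7% GGGCGG and 5.67% TATATA. Matches to the first 3 are thus common and those to TATATA less so, and all are descriptions only. The Ucp3 window is the poorest of the 3 in CG pairs, with 5 and a GC content of 55%, against 21 and 64.3% for Ucp2 and 15 and 64.7% for Ucp1. The median window held 7 CG pairs at a GC content of 52.7%.

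Each heart gave 1 library of polyA RNA, read as 100-nucleotide single-end reads, with 20082284 to 52602883 counted reads. The 6 cardiomyocyte markers, Myh6, Tnnt2, Actc1, Myl2, Ryr2 and Pln, were present in all 13 hearts. Their summed level was 66900 to 76520 CPM (counts scaled to a common library size, by the trimmed mean of M-values over the 13 libraries) in the 9 hearts without a note and 106700 to 156200 in the 4 noted hearts. Myh6 made up most of that sum, at 35930 to 43610 and 69080 to 118000 CPM. Over all 4 WT/WT hearts Actc1, Myl2 and Ryr2 varied little (9310 ± 318, 5512 ± 172.6 and 3197 ± 312.3 CPM, SD). Tnnt2 and Pln varied more (10850 ± 6747 and 4839 ± 2621 CPM), so the sum does not describe every marker. Macrophage, fibroblast and skeletal muscle marker sums were highest in the noted hearts as well (181.9 to 239.7 against 125.8 to 155.4, 1082 to 2253 against 791.2 to 903.6, and 3.569 to 5.359 against 1.977 to 2.955 CPM). Of the fibroblast markers, Col1a1, Col1a2 and Dcn varied widely over the 4 WT/WT hearts (349.9 ± 365.1, 309.2 ± 284.9 and 346.2 ± 131.8 CPM). Pdgfra and Tcf21 varied less there (53.68 ± 5.861 and 7.591 ± 0.9492 CPM). Endothelial sums overlapped (1189 to 1402 against 1044 to 1322 CPM), as did lymphocyte sums (7.237 to 12.42 against 9.724 to 14.63) and neutrophil sums (0.6871 to 1.832 against 1.261 to 2.399). Cpt1b was counted at 2.56 ± 0.66 CPM in WT/WT (SD, n = 4), 2.65 ± 0.633 in WT/E3A (n = 4) and 3.18 ± 0.541 in E3A/E3A (n = 5), and counts per gene do not show the E3A change itself. Its relative Cpt1a stood at 78.4 CPM in WT/WT and 68.9 in E3A/E3A. How reads were assigned where genes overlap is not given, and why the Cpt1b count is so low was not tested. It was therefore not taken as a measure of Cpt1b expression or as a check of the labels. In bulk RNA fewer cells of a type and less RNA per cell cannot be told apart.

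Ucp1 was read in quantity in 1 of the 13 hearts. The noted WT/WT heart, replicate 1, gave 58 Ucp1 reads, or 1.33 CPM. Replicates 1, 2 and 3 of WT/E3A gave 1 read each, and the 9 other hearts, all 5 of E3A/E3A among them, gave 0 reads. The E3A/E3A hearts thus allowed at most 3 reads each, 0.0705 to 0.128 CPM, a limit that covers counting error only. Among the 9 hearts without a note the highest Ucp1 count was 1 read, so no genotype difference of Ucp1 was detectable at this depth. Ucp1 did not pass the filter on low counts and was not tested in the fits across all genes. With no filter, edgeR's quasi-likelihood test in the 13 libraries gave a log2 fold change of -6.53 for E3A/E3A over WT/WT (unadjusted p = 0.024, adjusted p = 1). That value rests on the 58 reads of 1 heart. In the 9 libraries both of these genotypes had 0 reads, so the test could show no difference. The comparisons with WT/E3A there rest on 1 read per heart at most (adjusted p = 0.91 against WT/WT and 0.885 against E3A/E3A).

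**Figure D1:**
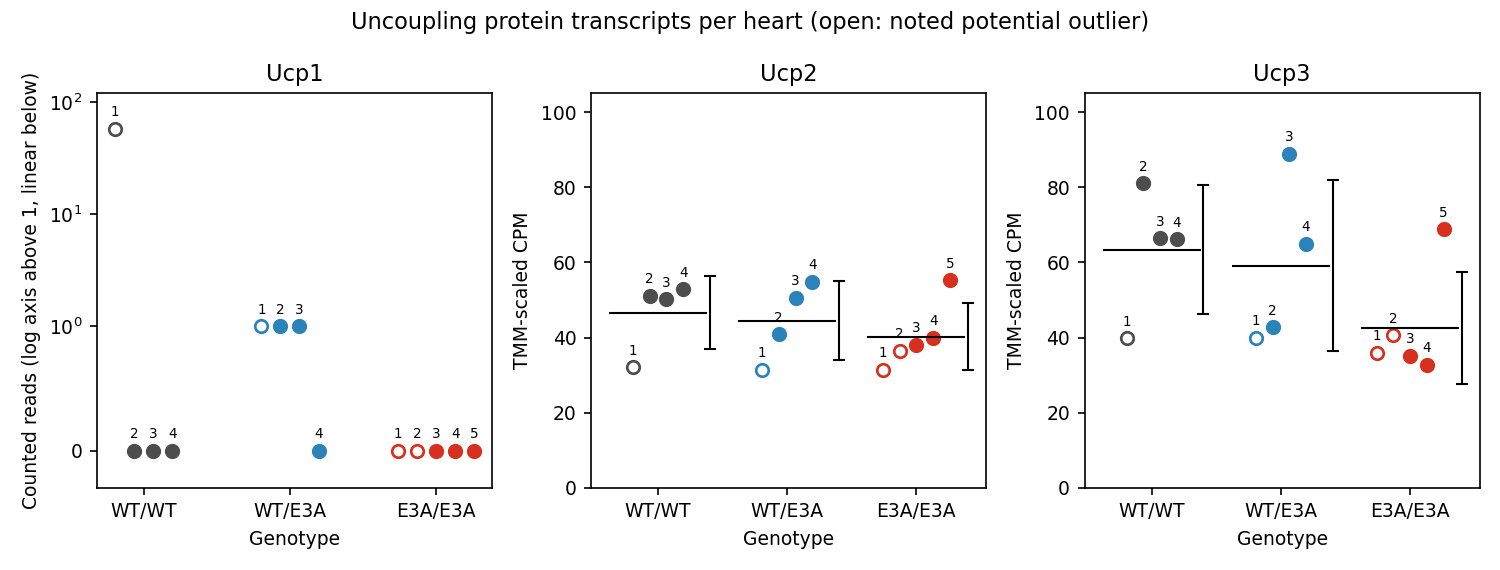
Level of each uncoupling protein gene in every heart, by genotype, with Ucp1 as counted reads (log axis above 1, linear below) and Ucp2 and Ucp3 as scaled CPM. Points are hearts with their replicate number, open points are the hearts noted as a potential outlier, and lines and bars are the mean and SD; WT/WT replicate 1 alone has more than 1 Ucp1 read, and the points of the 3 genotypes overlap for Ucp2 and Ucp3.

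The same heart stood apart in markers of white fat. The 7 white adipocyte markers summed to 17.4 CPM in WT/WT replicate 1 and to 1.829 to 5.969 CPM in the 12 other hearts. Adipoq, the fat hormone adiponectin, had 60 reads there, Plin1, a coat protein of lipid droplets, had 124, Cfd, adipsin, had 257, and Pck1, a gluconeogenic enzyme also found in fat, had 247. The 6 brown adipocyte markers moved less, with a sum of 82.6 CPM in that heart against 66.9 to 76.0 in the others. Prdm16 and Cidea, which made up most of that sum, were read in every heart, Ebf2 stood at 6.09 CPM there and at 7.024 CPM or more elsewhere, Elovl3 had 7 reads, and Zic1 was at 0 in WT/WT replicate 1 and in 9 of the 12 others. The part of fat in the Ucp1 count of this heart was not tested.

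**Figure D2:**
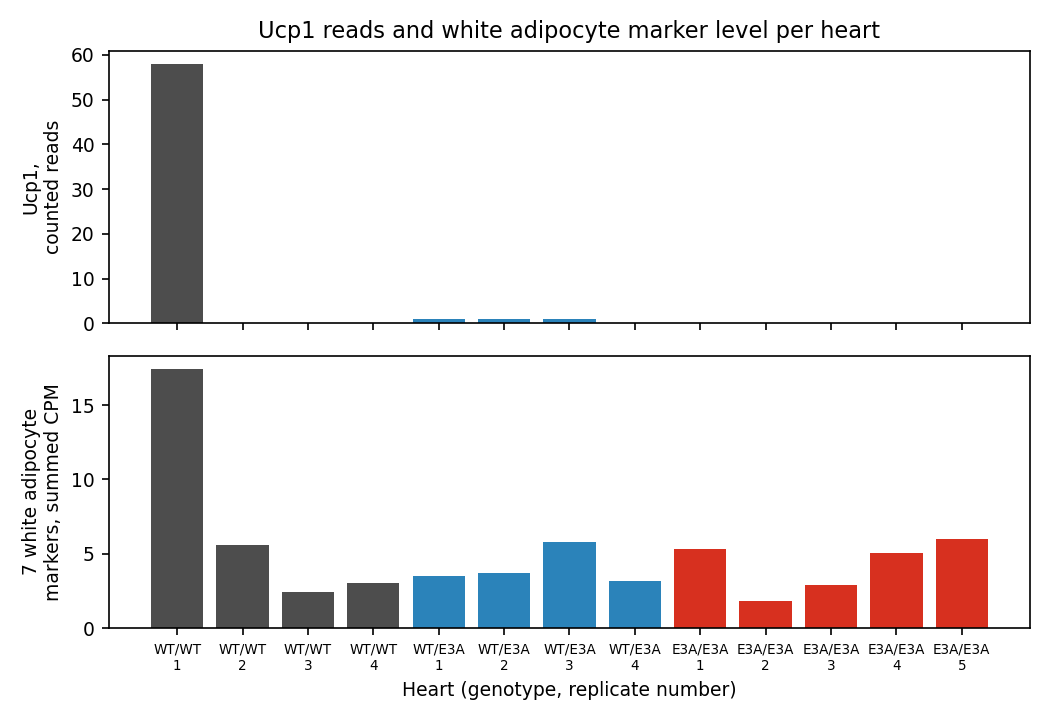
Ucp1 reads (top) and the summed scaled CPM of 7 white adipocyte markers (bottom), 1 bar per heart, coloured by genotype. WT/WT replicate 1, with 58 Ucp1 reads, has a marker sum of 17.4 CPM, and no other heart exceeds 5.969 CPM.

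Ucp2 was read in all 13 hearts, with 817 to 2308 reads each, and no genotype difference passed the test. In replicate order the 4 WT/WT hearts stood at 32.13, 51.18, 50.20 and 52.84 CPM. The heterozygotes stood at 31.38, 40.87, 50.67 and 54.89 CPM, and the 5 homozygotes at 31.43, 36.45, 38.15, 39.90 and 55.29 CPM. The lowest heart of each genotype was a noted one, and the highest E3A/E3A heart, replicate 5, was above every heart of the other genotypes. The means were 46.6 ± 9.70 (SD, n = 4), 44.5 ± 10.5 (n = 4) and 40.2 ± 8.99 (n = 5) CPM. Among the 9 hearts without a note they were 51.4 ± 1.33, 48.8 ± 7.19 and 44.5 ± 9.43 CPM (n = 3 each), and the 3 WT/WT hearts were close together, while the hearts with the allele ranged more widely on both sides of them.

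In edgeR's quasi-likelihood test the log2 fold change of Ucp2 in E3A/E3A over WT/WT was -0.21 (SE 0.21, 95% interval -0.67 to 0.24, adjusted p = 1) with 13 libraries and -0.22 (SE 0.16, -0.59 to 0.15, adjusted p = 0.851) with 9. WT/E3A over WT/WT gave -0.07 in both (adjusted p = 1 and 0.963), with intervals of -0.55 to 0.41 and -0.44 to 0.30. For E3A/E3A over WT/E3A the value was -0.14 in both (adjusted p = 1 and 0.884). The first of these intervals reaches -0.67, so the test does not show that the genotypes have the same Ucp2 level.

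Ucp3 had the lowest mean in E3A/E3A, yet the E3A/E3A hearts overlapped with those of both other genotypes and no difference passed the test. WT/WT hearts stood at 39.83, 81.11, 66.41 and 66.16 CPM. In WT/E3A the values were 39.95, 42.70, 88.91 and 64.98 CPM, and in E3A/E3A they were 35.94, 40.68, 35.18, 32.73 and 68.80 CPM. Of the E3A/E3A hearts 4 were at or below 40.68 CPM, with only replicate 5 among the high values, and in WT/WT the noted heart was the only low one. The means were 63.4 ± 17.2 (SD, n = 4), 59.1 ± 22.8 (n = 4) and 42.7 ± 14.9 (n = 5) CPM. Without the noted hearts they were 71.2 ± 8.56, 65.5 ± 23.1 and 45.6 ± 20.2 CPM (n = 3 each). Reads per heart numbered 907 to 3537, so counting error was small beside this spread.

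The log2 fold change of Ucp3 in E3A/E3A over WT/WT was -0.57 (SE 0.29, 95% interval -1.21 to 0.07, adjusted p = 1) with 13 libraries and -0.66 (SE 0.38, -1.58 to 0.26, adjusted p = 0.783) with 9 by edgeR's quasi-likelihood test. E3A/E3A over WT/E3A gave -0.47 (SE 0.30, adjusted p = 1) and -0.55 (SE 0.38, adjusted p = 0.831). The heterozygous hearts were nearer to WT/WT, with a log2 fold change of -0.10 (SE 0.31, adjusted p = 1) and -0.11 (SE 0.37, adjusted p = 0.975). An exact two-sided permutation test of the Ucp3 level, log2 of CPM plus 0.1, gave a difference of -0.58 for E3A/E3A over WT/WT with p = 0.0952 (adjusted over 6 comparisons 0.571). With 3 against 3 hearts, where the smallest p possible is 0.1, the difference was -0.72 with an exact permutation p = 0.3. Leaving out E3A/E3A replicate 5 took the 13-library edgeR value to -0.81 and the 9-library value to -1.07, with no adjusted p under 0.05. Across all other settings and leave-outs of 1 heart the value ranged from -0.82 to -0.43 with 13 libraries. With 9 libraries that range was -1.07 to -0.47.

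**Figure D3:**
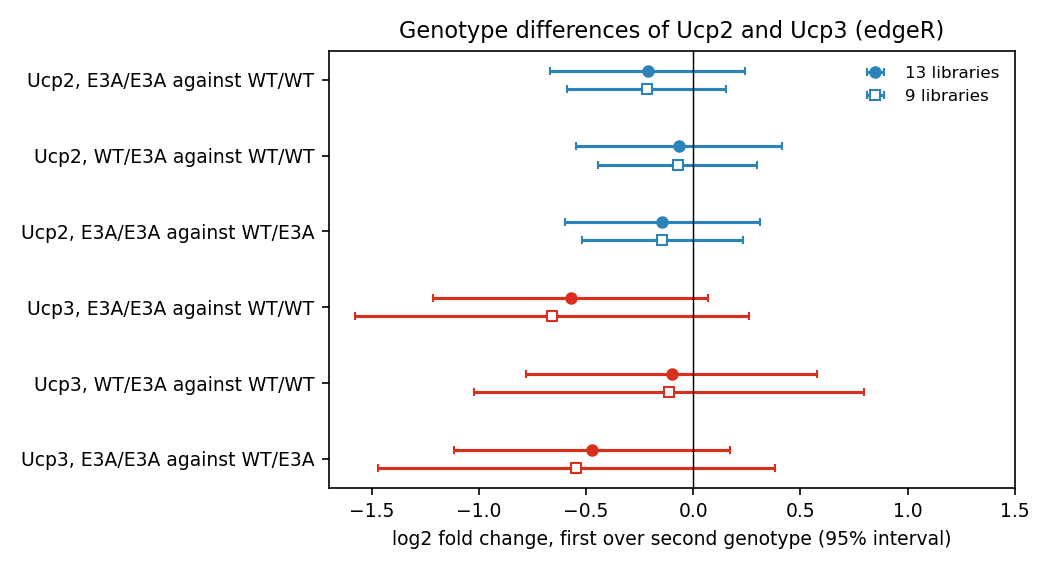
log2 fold changes of Ucp2 (blue) and Ucp3 (red) between genotypes from edgeR, with 95% intervals, for 13 libraries (filled circles) and 9 libraries (open squares). Every interval includes 0, and the Ucp3 intervals, such as -1.21 to 0.07 for E3A/E3A over WT/WT with 13 libraries, are wider than those of Ucp2.

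Of the 2 members tested, 0 were called at an adjusted p under 0.05 in any of the 6 fits, and 0 had an unadjusted p under 0.05 in edgeR. Among all 14387 genes tested with 13 libraries the same rule called 1 gene, or 0.00695%, between E3A/E3A and WT/WT, and 0 genes, or 0%, in each of the comparisons with WT/E3A. An unadjusted p under 0.05 was reached there by 173 genes between the homozygotes, by 117 between WT/E3A and WT/WT, and by 208 between E3A/E3A and WT/E3A. With 9 libraries it called 0.271%, 0.0209% and 0.0417% of 14373 genes in the same order, and 1105, 914 and 993 were under 0.05 unadjusted. In the 13-library comparisons with 0 calls DESeq2 called 0 and 4 genes, and limma-voom 5 and 5. DESeq2 called neither member in any comparison (lowest adjusted p 0.869). limma-voom with quality weights, which gives less weight to deviating libraries, gave the lowest adjusted p of the tools, for Ucp3 in E3A/E3A over WT/WT -0.82 (adjusted p = 0.1) with 13 libraries and -0.83 (adjusted p = 0.145) with 9, again with neither member called. The gene called with 13 libraries was Alox5 (-0.89, adjusted p = 0.0311), the enzyme that starts leukotriene synthesis, and the 3 called for WT/E3A against WT/WT with 9 were the clock genes Arntl (-0.79) and Npas2 (-0.67) and the rhythmic factor Hlf (0.58), all named after their values were seen.

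Sample titles begin with C2, C3, C4 or C6, and the sources used here do not say what these stand for. C2 holds only noted hearts, 1 WT/WT and 2 E3A/E3A, and there Ucp3 differed by -0.06 and Ucp2 by 0.07 on the log2 scale. Within C3 the 2 E3A/E3A hearts differed from the WT/WT heart by -0.72 for Ucp3 and -0.16 for Ucp2, and the WT/E3A heart differed from it by -0.92 and -0.32. The same 2 hearts differed from that WT/E3A heart by 0.20 and 0.17. Within C4 the 1 E3A/E3A heart differed from the 3 WT/E3A hearts by -0.90 for Ucp3 and -0.15 for Ucp2, and C6 holds WT/WT hearts only. With the prefix as a term in edgeR the 13-library Ucp3 value for E3A/E3A over WT/WT was -0.48 (adjusted p = 0.924), and with the note as a term it was -0.46 (adjusted p = 0.578). Homozygous hearts were thus below wild-type hearts in Ucp3 within C3, with little difference within C2, and were below heterozygous hearts within C4 but not within C3, at 1 to 3 hearts a side.

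The ratio of Ucp3 to Ucp2 had its lowest mean in E3A/E3A, by a difference that did not pass the adjusted threshold. This ratio of CPM in the same heart, from which the scaling cancels, was 1.239, 1.584, 1.322 and 1.252 in WT/WT. It was 1.272, 1.045, 1.753 and 1.184 in WT/E3A, and 1.143, 1.116, 0.922, 0.821 and 1.244 in E3A/E3A. The 2 hearts in which Ucp3 had fewer CPM than Ucp2 were both E3A/E3A, and of this genotype only replicate 5 reached the lowest WT/WT hearts. The mean log2 ratios were 0.42 ± 0.16 (SD, n = 4), 0.37 ± 0.32 (n = 4) and 0.05 ± 0.25 (n = 5). E3A/E3A differed from WT/WT by -0.37, with an exact two-sided permutation p of 0.0238, which over the 3 comparisons was an adjusted 0.0714 and did not pass 0.05. Against WT/E3A the difference was -0.31 (exact permutation p = 0.159), and between WT/E3A and WT/WT it was -0.06 (exact permutation p = 0.771). In the 9 hearts without a note E3A/E3A and WT/WT did not overlap in this ratio (difference -0.49), but their nearest hearts stood at 1.244 and 1.252. With the noted WT/WT heart, at 1.239, the 2 genotypes overlapped. The exact permutation p of 0.1 for the 9 hearts, adjusted 0.3, is the smallest that 3 against 3 can give. How often other gene pairs separate in this way was not tested.

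Across the 9 hearts the values fell in separate sets on either side of the widest gap in Ucp3, a cut drawn from these values. E3A/E3A replicates 3 and 4 and WT/E3A replicate 2 lay at 32.73 to 42.70 CPM of Ucp3 and 38.15 to 40.87 CPM of Ucp2. The 6 others, 3 WT/WT, 2 WT/E3A and 1 E3A/E3A, lay at 64.98 to 88.91 CPM of Ucp3 and 50.20 to 55.29 CPM of Ucp2. Over the 9 hearts Pearson r between the log2 CPM of Ucp2 and Ucp3 was 0.887 and Spearman rho 0.583, and r was 0.861 for deviations from the genotype means. Without E3A/E3A replicates 3 and 4, the hearts farthest from the median of Ucp2, r was 0.694 and rho 0.143 over 7 hearts. Since the values fall in separate sets these are given as descriptions, with no test. The 4 noted hearts lay with the low values of both genes.

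**Figure D4:**
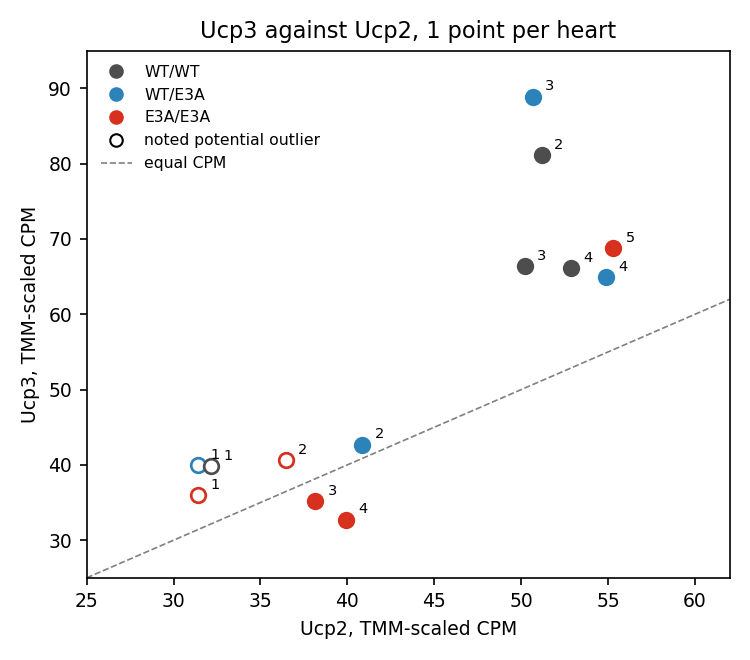
Ucp3 against Ucp2 in scaled CPM, 1 point per heart with its replicate number, coloured by genotype, open for the noted hearts; the dashed line marks equal CPM and the axes start at 25. Hearts lie either at 31.38 to 40.87 CPM of Ucp2 with 42.70 CPM of Ucp3 or less, or at 50.20 CPM of Ucp2 or more with at least 64.98 CPM of Ucp3.

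Pooled over the 3 genotypes, hearts of the same genotype differed more in Ucp3 than in most genes of like level. In edgeR's estimate of the biological coefficient of variation, the spread between hearts of a genotype beyond counting error, Ucp3 was at 24.2% and Ucp2 at 11.6% among the 9 libraries. The median of the 3527 genes with a mean of 30 to 100 CPM, a band chosen after the members' levels were seen, was 5.61%. Only 15 of these genes, 0.425%, were more variable than Ucp3, and 111, 3.15%, more than Ucp2. Among the 9 hearts the spread was not alike in the 3 genotypes and was smallest in WT/WT. In the 9 hearts the SD of Ucp3 was 8.56 CPM in WT/WT, 23.1 in WT/E3A and 20.2 in E3A/E3A. For Ucp2 it was 1.33, 7.19 and 9.43 CPM in the same order. Over all 13 hearts E3A/E3A had the smallest SD instead, at 14.9 CPM for Ucp3 and 8.99 for Ucp2. In WT/WT it was 17.2 and 9.70 CPM there, and differences in SD were not tested. With all 13 libraries the median rose to 21.2%, and 23.2% of 3542 genes exceeded the 31.5% of Ucp3 while 42.5% exceeded the 23.4% of Ucp2, so both members were nearer to the median gene there.

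Per kilobase of mRNA the order of Ucp2 and Ucp3 depends on the gene model. With the RefSeq gene bounds (1.6 kb for Ucp2, 2.45 kb for Ucp3) Ucp2 stood at 29.2, 27.8 and 25.2 CPM per kb in WT/WT, WT/E3A and E3A/E3A, and Ucp3 at 25.9, 24.2 and 17.4. With the longest GENCODE transcript of Ucp2, 3.99 kb, its levels were 11.7, 11.2 and 10.1 CPM per kb, below Ucp3 in every genotype. Ucp1 was lowest in every genotype, at 0.203 CPM per kb in WT/WT, 0.0169 in WT/E3A and 0 in E3A/E3A, and the WT/WT value came from 1 heart. Taken over all its GENCODE transcripts, Ucp2 shares 305 exon bases with Dnajb13 on the other strand. Dnajb13 itself stood at 0.17 CPM in WT/WT and 0.23 in E3A/E3A. No stretch shared between transcripts of the 3 members was longer than 24 bases, well under the read length of 100.

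None of the tested genes around Ucp2 and Ucp3 was called, and in E3A/E3A over WT/WT their point values were nearer to 0 than those of Ucp3. C2cd3, a centriole protein gene upstream of Ucp3, gave a log2 fold change of 0.07 (SE 0.16) in E3A/E3A over WT/WT with 13 libraries and 0.01 (SE 0.08) with 9. Coa4, a cytochrome c oxidase assembly factor, gave -0.10 (SE 0.12) and -0.05 (SE 0.11), and Mrpl48, a protein of the mitochondrial ribosome, gave 0.10 (SE 0.11) and 0.02 (SE 0.06). Dnajb13, the nearest gene after Ucp2, did not pass the filter. Around Ucp1, Tbc1d9 gave 0.15 (SE 0.16) and 0.19 (SE 0.15), and Elmod2 gave -0.12 (SE 0.37) and -0.12 (SE 0.08), while Clgn did not pass the filter. In this comparison all their adjusted p in edgeR were 1 with 13 libraries and at least 0.814 with 9. In WT/E3A over WT/WT, C2cd3 gave 0.19 and 0.15, farther from 0 than Ucp3 at -0.10 and -0.11, and the lowest adjusted p of any neighbour was its 0.778 in E3A/E3A over WT/E3A with 9 libraries, and the difference between Ucp3 and its neighbours was not tested.

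**Figure D5:**
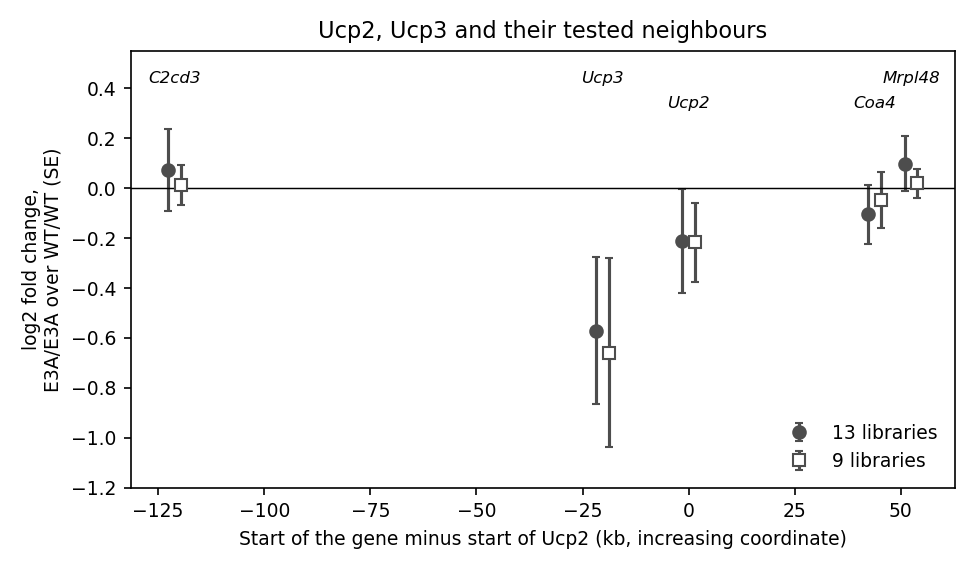
log2 fold change of E3A/E3A over WT/WT (edgeR, bars are 1 SE) for Ucp2, Ucp3 and the tested genes within 100 kb, against the distance of each gene's start from that of Ucp2, for 13 (filled) and 9 libraries (open), drawn slightly apart. Ucp3 lies at -0.57 and -0.66, Ucp2 at -0.21 and -0.22, and C2cd3, Coa4 and Mrpl48 between -0.10 and 0.10.

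Of the 6 relatives of the uncoupling proteins in the carrier family, all tested, 0 were called in any of the 6 fits. Slc25a4, the ADP/ATP carrier of heart and muscle, was by far the most abundant, at 4630 ± 85.1 CPM in WT/WT and 4609 ± 77.5 in E3A/E3A (SD, n = 3 each) without the noted hearts, a log2 fold change of -0.01 (SE 0.04). Slc25a5, the ADP/ATP carrier of most other cells, stood at 206.4 ± 7.13 and 213.0 ± 19.0 CPM. The brain-type uncoupling protein homologues Slc25a27 (UCP4) and Slc25a14 (UCP5) were low, with 8.69 ± 0.477 and 7.97 ± 1.68 CPM for the first and 2.39 ± 0.303 and 2.04 ± 0.235 CPM for the second. Slc25a30, the kidney mitochondrial carrier KMCP1, stood at 7.02 ± 0.422 and 6.20 ± 0.464 CPM, and Slc25a31, the ADP/ATP carrier of germ cells, at 0.514 ± 0.262 and 0.440 ± 0.157. Their median log2 fold change for E3A/E3A over WT/WT was -0.10 with 13 libraries and -0.15 with 9, beside medians of -0.02 and 0.00 over all genes tested. With the noted hearts included Slc25a4 was far more spread, at 5546 ± 1833 CPM in WT/WT (n = 4) and 5672 ± 1495 in E3A/E3A (n = 5). Its log2 fold change was then 0.03 (SE 0.24).

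The transcription factors and coactivators known to act on uncoupling protein genes had 0 of 14 tested members called in any fit, with a median log2 fold change for E3A/E3A over WT/WT of 0.00 with 13 libraries and 0.02 with 9. Ppargc1a, the coactivator that drives mitochondrial genes and Ucp1 in brown fat, stood at 135.1 ± 39.8 CPM in WT/WT (SD, n = 4) and 186.5 ± 112 in E3A/E3A (n = 5), with a log2 fold change of 0.47 (SE 0.40, edgeR adjusted p = 1). Ppargc1b, its close relative, stood at 58.4 ± 5.27 and 49.7 ± 7.33 CPM (-0.23, SE 0.14, adjusted p = 1). In WT/E3A it was at 70.3 ± 11.7 CPM, and E3A/E3A over WT/E3A gave -0.50 (SE 0.14), with an adjusted p of 1 with 13 libraries and 0.717 with 9.

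Other targets of PPAR receptors that answer to fatty acids were lower in E3A/E3A at the level of point values. Of 14 tested, 12 had a negative log2 fold change against WT/WT with both sets of libraries, with medians of -0.22 and -0.19. The 2 above 0 with 13 libraries were Pdk4 (0.02, SE 0.50) and Cpt1b itself (0.31, SE 0.22). Among all genes tested 56.3% were below 0 with 13 libraries and 49.4% with 9. In the list 0 were called with 13 libraries and 3, all lower, with 9, where 0.271% of all genes were called. The list was chosen with earlier results of these data known, so these shares are descriptions only. The 3 that fell were Acot1, a cytosolic acyl-CoA thioesterase, Fabp3, the fatty acid binding protein of heart, and Slc25a20, the carnitine/acylcarnitine carrier of the inner membrane. Acot1 fell from 13.9 ± 0.376 to 6.84 ± 0.476 CPM (SD, n = 3 each), a log2 fold change of -1.03 (SE 0.13, edgeR adjusted p = 0.00405). Slc25a20 fell from 208.2 ± 4.62 to 163.6 ± 8.84 CPM (-0.35, SE 0.06, edgeR adjusted p = 0.0212), and Fabp3 from 1291 ± 18.6 to 1042 ± 59.6 CPM (-0.31, SE 0.05, edgeR adjusted p = 0.0271). With 13 libraries these gave -1.13, -0.38 and -0.31, each with an adjusted p of 1. The Acot1 call held in all 16 alternatives to the 9-library fit (adjusted p up to 0.0451), while the calls of Fabp3 and Slc25a20 were lost with the title prefix as a term and when E3A/E3A replicate 3 or 5 or WT/WT replicate 3 or 4 was left out (adjusted p up to 0.248 and 0.161). Ucp3 differed from them in its spread, with SDs of 8.56 and 20.2 CPM around means of 71.2 and 45.6 CPM in the same 6 hearts, and the size of its change relative to theirs was not tested.

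Mitochondrial antioxidant genes and adrenergic and deiodinase genes, which feed into uncoupling protein function or expression, showed 0 of 9 and 0 of 5 tested genes called in any fit. Nnt, the proton-driven transhydrogenase that supplies NADPH, stood at 1262 ± 295 CPM in WT/WT (SD, n = 4) and 1034 ± 393 in E3A/E3A (n = 5), a log2 fold change of -0.29 (SE 0.26, edgeR adjusted p = 1). Glrx2, a mitochondrial glutaredoxin, was at 23.4 ± 3.65 and 22.3 ± 5.81 CPM. Adra1b, the alpha-1B adrenergic receptor, was at 69.9 ± 6.82 and 61.8 ± 5.00 CPM (-0.18, SE 0.10, edgeR adjusted p = 1), and Adrb1, the main beta receptor of heart muscle, at 31.2 ± 4.84 and 28.65 ± 6.30 CPM. With 9 libraries Nnt gave -0.50 (SE 0.39, edgeR adjusted p = 0.865) and Adra1b -0.16 (SE 0.06, edgeR adjusted p = 0.465).

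Among 12626 genes with a mean of at least 1 CPM, those whose log2 CPM followed Ucp3 most closely over the 9 hearts without a note were Spag9 (r = 0.956), Nipa2 (0.94), Tmem117 (0.938), Atp13a3 (0.936) and Dars (0.934). Over all 13 hearts the same genes gave r of 0.664, 0.473, 0.6, 0.632 and 0.573. Nearest to Ucp2 were Eps8l2 (r = 0.955), Klhl38 (0.934), AI987944 (0.904), Wrb (0.899) and 5330426P16Rik (0.898), and over 13 hearts these gave -0.514, 0.713, 0.85, 0.929 and 0.217. Ucp3 was at place 11 for Ucp2, and Ucp2 at place 36 for Ucp3. The 5 nearest genes of the 2 members were different, and Spag9, at 256.9 to 287.8 CPM, varied far less in size than Ucp3, at 32.73 to 88.91 CPM. These are descriptions over 9 points that fall in separate sets and share libraries and scaling, with no test.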

How the data were processed

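Gene counts of 13 heart libraries were used, in the deposited files of whole-number counts per gene symbol. Per the submitters' processing notes the tools include STAR 2.4.0 and featureCounts 1.4.4, and the builds mm10 and GRCm38; the annotation, strand setting and treatment of reads with several matches are not given in the sources used here. Groups were taken from the genotype in the labels, which describe each sample as heart RNA without saying more on how the hearts were sampled, so p-values measure the spread between these samples. The members and gene lists were chosen with earlier results of these data known.

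Counts were fitted in edgeR 4.0.16 (R 4.3.3; filterByExpr by genotype, trimmed mean of M-values scaling, quasi-likelihood test, Benjamini-Hochberg over all genes tested, threshold 0.05), with 3 genotypes in 1 fit, for 13 and for 9 libraries. The script was tested on simulated data. CPM were scaled with the 13-library factors, and 0.1 was added before log2. Exact permutation tests used scipy 1.17.1. Alternatives were DESeq2 1.42.0, limma 3.58.1 (voom with quality weights), other scalings, no filter, 2 genotypes at a time, terms for title prefix and note, and leaving out each library. Named were the 3 members, all carrier homologues, of each other list the genes called in any fit and the 2 of lowest p in E3A/E3A against WT/WT with 13 libraries, tested genes within 100 kb, the 5 most alike genes, and Cpt1b. Replicate numbers follow accession order and pair no hearts. Positions and promoters are from RefSeq and GENCODE for GRCm38.p6, in which all 3 members matched by symbol. Libraries held 20082284 to 52602883 counts, and no 2 files held identical values.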

Additional observations from a re-analysis of the deposited data

Results flagged for a closer look

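In 3 of 11 groups of hearts examined, 1 heart lay farther from the rest than Dixon's 95% limit allows. That limit assumes normal values, and the groups reuse the same hearts, so the 3 of 11 is a description only. For Ucp1, WT/WT replicate 1 stood at 1.33 CPM while the other 3 WT/WT hearts had 0 reads, and this heart is one the labels note as a potential outlier. With 3 hearts at 0 reads, any count in the remaining heart would have been flagged. The same heart was the low one for Ucp2, at 32.13 CPM, with its gap to the next WT/WT heart making up 0.873 of the range of the group. For Ucp3 it was E3A/E3A replicate 5, a heart without a note, that stood high at 68.80 CPM, with 0.78 of the range between it and the next heart.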

How the results depend on the processing

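No alternative brought Ucp2, Ucp3 or their ratio past the adjusted threshold (222 alternatives to the edgeR fits, 156 to the permutation tests of levels, 72 to those of the ratio; lowest adjusted p 0.1, 0.171 and 0.0714). The sign held in 215, 151 and 68 of them. With the title prefix as a term the 13-library Ucp2 value for E3A/E3A over WT/E3A was 0.0097 instead of -0.14. All other changes of sign came in WT/E3A over WT/WT when 1 heart was left out. In edgeR these values then ranged from -0.2095 to 0.0674 for Ucp2 and from -0.3652 to 0.0491 for Ucp3 with 13 libraries, and from -0.1627 to 0.0365 and -0.4042 to 0.1141 with 9. In the level test they ranged from -0.2415 to 0.0837 and -0.353 to 0.0311 with 13, and from -0.1752 to 0.037 and -0.4278 to 0.1003 with 9. For the ratio the range was -0.2069 to 0.0421 with 13 and -0.3102 to 0.0633 with 9. The cause was not tested. Without WT/WT replicate 1 no heart has more than 1 Ucp1 read. Counts of called genes depended strongly on the setting. With 13 libraries other settings gave 0 to 73 for E3A/E3A against WT/WT, where edgeR gave 1, and 0 to 5 in the comparisons with WT/E3A. With 9 libraries they gave 10 to 98, 0 to 19 and 1 to 38 where edgeR gave 39, 3 and 6, and leaving out 1 heart gave 8 to 43, 0 to 12 and 1 to 13. Depth sets the limit for Ucp1, as given above for its hearts at 0 reads. Whether depth or the number of hearts limits Ucp2 and Ucp3 was not tested.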
